A study of Homo sapiens with 18 samples.

Results

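SUMO2, MLLT11, PIN4 and DAZAP2 are 4 genes whose response to thapsigargin in cells with high ERN2 expression lay above their response in cells without induced ERN2. Without doxycycline their levels with thapsigargin were 0.517 to 0.530 of those with vehicle, and in cells with high ERN2 they were 0.993 to 1.07 of them. They were selected on the measured difference between these 2 responses, among 25435 rows of a table of RNA-Seq read counts, of which 14768 passed the filter on low counts and could be tested for it. All 4 of 4 passed the filter, so none of them is left out. In the fit used here they held ranks 1 to 4 by p among genes with a positive difference. Their values in that contrast describe how they were chosen and are not evidence for it.

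The cells were HEK293doxERN2, a human embryonic kidney line with a doxycycline-inducible FLAG-ERN2 transgene. The libraries fell into 6 groups of 3, giving 18 in all. Cells had no doxycycline, 10 ng/mL or 100 ng/mL for 24 hours, named No ERN2, Low ERN2 and High ERN2 in the labels. At each dose 3 libraries came from control cells given DMSO vehicle and 3 from stressed cells given 200 nM thapsigargin for 3 hours. All groups share the line and the transgene, and the parent line without the transgene was not analysed here. The labels do not say whether replicates were separate cultures, so p-values measure the spread between these libraries, which may be technical. One protocol label names colon crypt cells as the source of the RNA. Of 10 colon epithelium markers, 8 stayed under 1 CPM (read counts relative to the TMM-scaled library total) in every library, MUC2 and VIL1 among them, while CDX2 was at 3.21 to 8.94 CPM and LGR5 at 8.40 to 36.0 CPM. Of 6 HEK293 markers, 5 exceeded 10 CPM in at least 1 library.

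ERN2, also called IRE1β, is an endoplasmic reticulum (ER) stress sensor of mucosal epithelia and a paralog of the ubiquitous ERN1. Both carry a kinase and an RNase domain, and the RNase removes an intron from XBP1 mRNA. Thapsigargin blocks the calcium pump of the ER, which disturbs protein folding and starts the unfolded protein response. SUMO2 is a small protein that is attached to lysines of other proteins through a dedicated set of E1, E2 and E3 enzymes and removed by SENP proteases, and its attachment is known to increase under several stresses. PIN4 is a parvulin, a prolyl isomerase linked to ribosome assembly. DAZAP2 is a small proline-rich protein that binds other proteins as an adaptor. MLLT11, also called AF1q, was found as a fusion partner of the histone methyltransferase KMT2A in leukemia.

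The 250 bases before the RefSeq start of each gene are shown because the 4 genes were chosen for moving alike. They come from RefSeq on build GRCh38.p14, in which 4 of 4 genes were matched, and the most upstream listed start was taken. These starts lie inside the longer GENCODE gene spans given further on, by 24 bases for SUMO2, 2639 for MLLT11, 323 for PIN4 and 534 for DAZAP2, so that the windows of MLLT11, PIN4 and DAZAP2 fall wholly within those spans. A GENCODE transcript starts at the RefSeq start of PIN4 and of DAZAP2 and 3 bases from that of SUMO2, while for MLLT11 the nearest is 2639 bases away. They are written 5′ to 3′ on the strand of the gene, and capitals mark CCAAT or its reverse complement, the core of the CCAAT box. The intervals are chr17:75182960-75183209 on the minus strand for SUMO2, chr1:151060147-151060396 on the plus strand for MLLT11, chrX:72181426-72181675 on the plus strand for PIN4 and chr12:51238576-51238825 on the plus strand for DAZAP2.
SUMO2: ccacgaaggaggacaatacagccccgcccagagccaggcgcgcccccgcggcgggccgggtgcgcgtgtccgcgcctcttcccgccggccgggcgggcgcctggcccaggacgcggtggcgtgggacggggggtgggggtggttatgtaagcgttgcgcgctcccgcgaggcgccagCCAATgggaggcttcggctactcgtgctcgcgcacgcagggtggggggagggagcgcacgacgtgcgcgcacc
MLLT11: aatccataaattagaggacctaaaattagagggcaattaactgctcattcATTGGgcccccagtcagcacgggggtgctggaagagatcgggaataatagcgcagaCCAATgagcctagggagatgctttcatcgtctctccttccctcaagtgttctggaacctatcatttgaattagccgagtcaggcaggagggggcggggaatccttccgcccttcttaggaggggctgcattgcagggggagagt
PIN4: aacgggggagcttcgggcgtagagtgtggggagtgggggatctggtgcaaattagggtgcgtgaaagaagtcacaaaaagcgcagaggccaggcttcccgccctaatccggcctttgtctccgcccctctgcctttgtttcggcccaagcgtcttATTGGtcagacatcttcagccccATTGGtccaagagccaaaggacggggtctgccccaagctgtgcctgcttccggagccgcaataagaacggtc
DAZAP2: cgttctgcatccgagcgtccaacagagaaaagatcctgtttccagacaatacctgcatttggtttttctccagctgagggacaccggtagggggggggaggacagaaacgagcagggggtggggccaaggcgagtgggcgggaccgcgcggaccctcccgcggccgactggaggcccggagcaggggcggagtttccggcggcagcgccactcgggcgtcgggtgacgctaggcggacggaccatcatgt
On either strand SUMO2 held 1 copy, MLLT11 2, PIN4 2 and DAZAP2 0, and 32.0% of 35116 promoters of this length held at least 1. Searched on both strands as well, CCACG, the 3′ part of the ER stress element, was present in SUMO2 alone with 2 copies and in 33.5% of promoters. TGACG, the core of the cAMP response element, was present in DAZAP2 alone with 1 copy and in 21.2% of promoters. The motifs can share letters at their ends, as TGACG and the reverse complement of CCACG do, but no matches of different motifs overlapped in these 4 windows (0 pairs in each). The GC content of these windows was 76.4% for SUMO2, 52.0% for MLLT11, 58.8% for PIN4 and 66% for DAZAP2, against a median of 58.0%. No single one of these 3 motifs was present in all 4 windows.

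In GENCODE release 29 on GRCh38, the build hg38 that the submitters' processing notes name, the genes lie on different chromosomes. SUMO2 spans chr17:75165586-75182983 on the minus strand, MLLT11 chr1:151057758-151068497 on the plus strand, PIN4 chrX:72181353-72302926 on the plus strand and DAZAP2 chr12:51238292-51271362 on the plus strand. The reference transcripts of SUMO2, PIN4 and DAZAP2 have 4 exons each and that of MLLT11 has 2, against a median of 9 over 12952 protein-coding genes tested. Their lengths were 3190 bases for SUMO2, 4075 for MLLT11, 1321 for PIN4 and 2598 for DAZAP2, against a median of 3266 bases. CTGCAG, the sequence of a cleavage site that ERN1 uses in XBP1 mRNA, was the only such sequence searched. It occurred 3 times in the transcript of MLLT11 and 0 times in each of the other 3. At least 1 copy was held by 85.9% of the protein-coding transcripts.

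Some counts of these genes may be shared with neighbours or copies. SUMO2 overlaps JPT1 over 2696 bases on the same strand, and GENCODE names 18 pseudogenes of SUMO2, none of which has a row in the table. MLLT11 lies within CDC42SE1, PIN4 overlaps RPS4X, ERCC6L and CITED1, and DAZAP2 overlaps SMAGP, all on the opposite strand. The library kit kept strand, but how strand was set during counting is not given in the sources used here. The neighbours named next were chosen for their position, and no values are given here for JPT1, ERCC6L and CITED1. With thapsigargin at 10 ng/mL, CDC42SE1 differed by 0.06 on the log2 scale (adjusted p = 0.759, edgeR), RPS4X by -0.14 (adjusted p = 0.440) and SMAGP by -0.02 (adjusted p = 0.943), and none passed the threshold by edgeR, at an unadjusted p of 0.05 or by DESeq2. The pseudogene PIN4P1 had group means of 0.862 to 1.81 CPM. Its log2 response to thapsigargin was -1.01 (SE 0.348), -0.73 (SE 0.324) and -0.34 (SE 0.329) at 0, 10 and 100 ng/mL in the fit of 18 libraries, of the same sign and a like size as that of PIN4 at 0 and 10 ng/mL. In the test of the 6 libraries at 10 ng/mL it was at -0.72 (SE 0.311) with an adjusted p of 0.184 (edgeR) and an unadjusted p under 0.05. Whether it shares reads with PIN4 was not tested.

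Library totals ranged from 14876416 to 24652240 counted reads, with a median of 19553613. The counting error of the 4 genes was at most 4.22% in any library, so the spread between the 3 libraries of a group limits their precision. No pair of replicates was alike within sampling noise (chi-square per degree of freedom 6.99 to 60.2 over 18 pairs). ERN2 followed its labels in all groups, with 6.66 to 9.26 CPM in No ERN2 control, 10.5 to 14.4 in No ERN2 stress, 23.0 to 56.8 in Low ERN2 control, 32.3 to 111 in Low ERN2 stress, 244 to 308 in High ERN2 control and 167 to 268 in High ERN2 stress. The library farthest from the others of its group was High ERN2 stress replicate 1, with a root mean square distance of 0.54 on the log2 scale against a median of 0.35 over the 18 libraries. It had the highest ERN2 of its group and the lowest level of all 4 genes in its group. Low ERN2 stress replicate 3 had the highest ERN2 of its group, at 111 CPM against 32.3 and 54.5, and the highest level of all 4 genes in its group. The part of these libraries in the results was not tested beyond leaving each out.

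SUMO2, the ubiquitin-like modifier, had 221, 234 and 248 CPM in replicates 1, 2 and 3 of No ERN2 control and 114, 123 and 128 CPM in No ERN2 stress. At 10 ng/mL it had 225, 223 and 225 CPM with vehicle and 137, 144 and 173 CPM with thapsigargin. At 100 ng/mL it had 229, 251 and 249 CPM with vehicle and 220, 255 and 248 CPM with thapsigargin. The thapsigargin libraries lay wholly below the vehicle libraries at 0 and 10 ng/mL, and the groups overlapped at 100 ng/mL. In bulk RNA a lower level in all cells and a loss of the transcript from some of them cannot be told apart. As means ± SD of 3 libraries, vehicle and thapsigargin were at 234 ± 13.3 and 122 ± 7.53 CPM without doxycycline, 224 ± 0.939 and 151 ± 18.9 at 10 ng/mL, and 243 ± 12.0 and 241 ± 18.5 at 100 ng/mL.

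PIN4, the parvulin, had 108, 103 and 107 CPM in No ERN2 control and 56.5, 53.6 and 58.6 CPM in No ERN2 stress. Low ERN2 control held 102, 110 and 103 CPM and Low ERN2 stress 66.6, 71.5 and 76.2 CPM. High ERN2 control held 104, 107 and 117 CPM and High ERN2 stress 97.2, 121 and 118 CPM. Again the groups were apart at 0 and 10 ng/mL, with thapsigargin lower, and overlapped at 100 ng/mL. The group means of PIN4 with thapsigargin were 56.2 ± 2.53, 71.4 ± 4.83 and 112 ± 13.0 CPM at 0, 10 and 100 ng/mL (SD, n = 3), and those with vehicle 106 ± 2.77, 105 ± 4.64 and 109 ± 6.64 CPM.

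DAZAP2, the proline-rich adaptor, had 250, 266 and 257 CPM in No ERN2 control and 134, 136 and 130 CPM in No ERN2 stress. In Low ERN2 control it had 247, 232 and 227 CPM, and in Low ERN2 stress 157, 162 and 165 CPM. In High ERN2 control it had 262, 228 and 269 CPM, and in High ERN2 stress 232, 306 and 276 CPM. The high thapsigargin libraries are those at 100 ng/mL, where DAZAP2 also varied most between replicates. Means with thapsigargin were 134 ± 2.98, 161 ± 4.36 and 272 ± 37.1 CPM and with vehicle 258 ± 8.29, 235 ± 10.4 and 253 ± 22.1 CPM (SD, n = 3) by dose.

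MLLT11, the KMT2A partner, had 66.04, 66.6 and 60.1 CPM in No ERN2 control and 36.2, 30.9 and 32.4 CPM in No ERN2 stress. The Low ERN2 control libraries held 68.0, 55.1 and 48.3 CPM and the Low ERN2 stress libraries 38.2, 38.8 and 40.3 CPM. The High ERN2 control libraries held 58.0, 50.4 and 52.2 CPM and the High ERN2 stress libraries 54.0, 58.5 and 54.3 CPM. MLLT11 showed the same order as the other 3 genes with thapsigargin, and with vehicle its 3 libraries at 100 ng/mL lay below the 3 without doxycycline. Its means with thapsigargin were 33.2 ± 2.74, 39.1 ± 1.12 and 55.6 ± 2.53 CPM, and with vehicle 64.2 ± 3.61, 57.2 ± 10.0 and 53.5 ± 4.00 CPM (SD, n = 3).

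**Figure D1:**
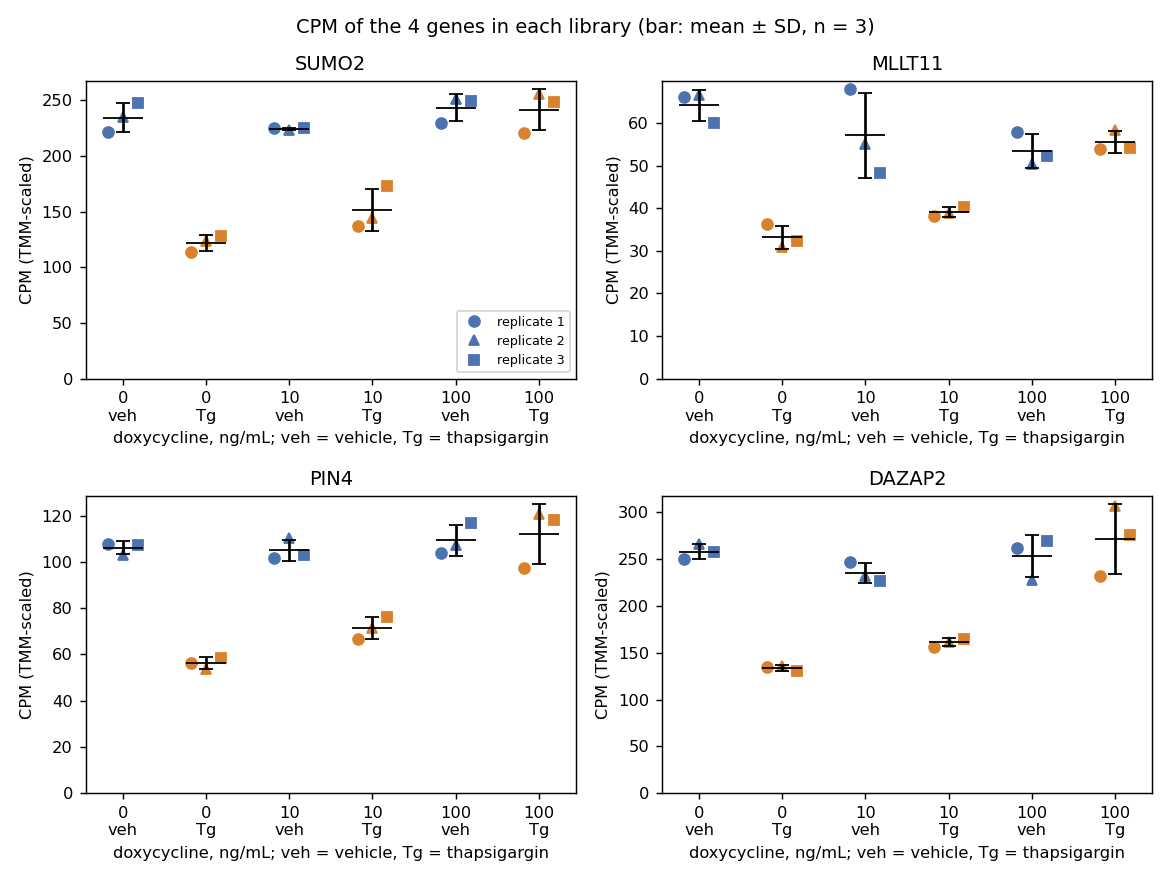
CPM of SUMO2, MLLT11, PIN4 and DAZAP2 (y axis, TMM-scaled) in each of 18 libraries by doxycycline dose and treatment (x axis). Symbols mark replicate number, blue is vehicle, orange is thapsigargin, and bars show the mean ± SD of 3 libraries. In each panel the orange points are lowest at 0 ng/mL, higher at 10 ng/mL and within reach of the blue points at 100 ng/mL.

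For each of the 4 genes the lowest group was No ERN2 stress, the next was Low ERN2 stress, and the ranges of these 2 groups did not overlap. The thapsigargin libraries lay below all vehicle libraries in 4 of 4 genes without doxycycline, as in 19.7% of 15023 genes, and in 0 of 4 at 100 ng/mL, where 15.6% of genes lay so. The other 4 groups lay higher than No and Low ERN2 stress. Each of those 4 overlapped with its neighbours in the order of levels, in every one of the 4 genes. With thapsigargin all 3 libraries at 10 ng/mL exceeded all 3 without doxycycline in 4 of 4 genes, a separation that 4.10% of 15023 genes showed. The 3 libraries at 100 ng/mL exceeded the 3 without doxycycline in 4 of 4 genes, against 12.1% of all genes, and the 3 at 10 ng/mL in 4 of 4, against 9.84%. The comparisons at 0 and 100 ng/mL include the libraries that chose the genes, so nothing is read from these counts. With vehicle the groups overlapped in most pairs of doses. The exceptions were MLLT11 in 100 against 0 ng/mL (lower), DAZAP2 in 10 against 0 ng/mL (lower) and SUMO2 in 100 against 10 ng/mL (higher).

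The log2 fold changes of the contrast that chose the genes, which is the thapsigargin response at 100 ng/mL minus that without doxycycline, were 1.05 (SE 0.143) for SUMO2, 1.12 (SE 0.167) for MLLT11, 1.07 (SE 0.159) for PIN4 and 1.17 (SE 0.174) for DAZAP2 in the fit of 12 libraries. Among the genes just outside by p, HSPA8 was at 1.21 (SE 0.187), a difference that was no smaller. Of the 4 genes 1 was called at the study's threshold of 0.01, SUMO2, and the share of all tested genes was 0.00677% in the higher direction and 0.0406% in either direction. At 0.05 the share called higher was 0.467%, and with a replicate block 0.142%. In the scaling of all 18 libraries the same differences were 0.93, 1.01, 0.95 and 1.05, in the order SUMO2, MLLT11, PIN4 and DAZAP2. The median of all genes in this contrast was -0.08 in that scaling and 0.04 in the fit of 12 libraries. Without High ERN2 stress replicate 1 the 12-library values were 1.07 for SUMO2, 1.10 for MLLT11, 1.12 for PIN4 and 1.22 for DAZAP2, while the number of genes called in either direction went from 6 to 1286. With a trend on GC content and transcript length removed from each library, the values were 0.79 for SUMO2, 1.19 for MLLT11, 0.54 for PIN4 and 1.04 for DAZAP2, and the value for PIN4 moved most. GC content and length were removed together, so their parts cannot be told apart.

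The parts of that contrast were taken from the fit of 18 libraries. Without doxycycline the thapsigargin response was -0.94 (SE 0.101) for SUMO2, -0.95 (SE 0.121) for MLLT11, -0.92 (SE 0.102) for PIN4 and -0.95 (SE 0.101) for DAZAP2 on the log2 scale, against a median of -0.02 for all genes. At 100 ng/mL it was -0.01 (SE 0.0997), 0.05 (SE 0.119), 0.04 (SE 0.10) and 0.10 (SE 0.0999), against a median of -0.05. As ratios to vehicle, these were 0.520 for SUMO2, 0.517 for MLLT11, 0.530 for PIN4 and 0.518 for DAZAP2 without doxycycline, and 0.993, 1.04, 1.03 and 1.07 at 100 ng/mL. When High ERN2 stress replicate 1 was left out, the responses at 100 ng/mL were 0.09 for SUMO2, 0.12 for MLLT11, 0.17 for PIN4 and 0.24 for DAZAP2.

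**Figure D2:**
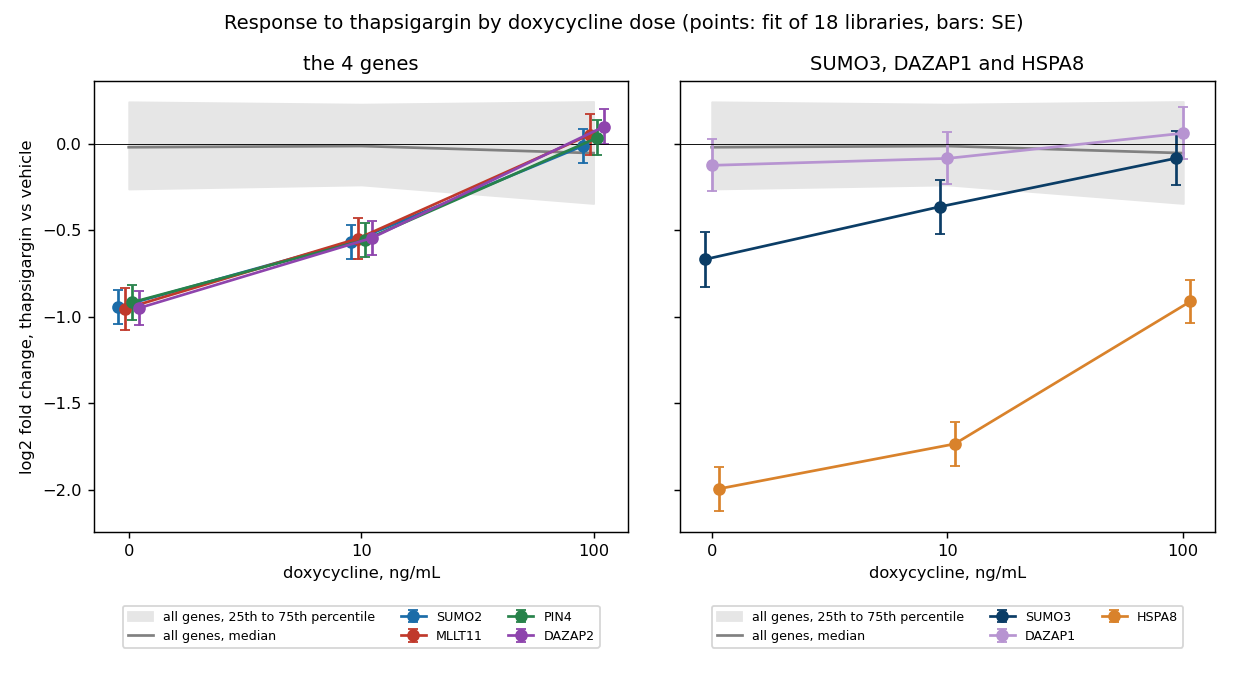
Thapsigargin response (y axis, log2 fold change against vehicle, fit of 18 libraries, bars are SE) at 0, 10 and 100 ng/mL doxycycline (x axis) for the 4 genes (left) and for SUMO3, DAZAP1 and HSPA8 (right), with the median and the 25th to 75th percentile of all genes in grey. The 4 genes lie near -0.95, -0.55 and 0.05 at the 3 doses, and HSPA8 stays below 0 at each dose.

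The cells at 10 ng/mL took no part in choosing the genes, so their 6 libraries allowed a test of the thapsigargin response at an intermediate level of ERN2. All 4 genes were lower with thapsigargin there, with log2 fold changes of -0.56 (SE 0.120) for SUMO2, -0.54 (SE 0.143) for MLLT11, -0.55 (SE 0.113) for PIN4 and -0.54 (SE 0.102) for DAZAP2. The adjusted p-values of edgeR's quasi-likelihood test were 0.0236, 0.0494, 0.0197 and 0.0151 in the same order. Thus 0 of 4 passed the threshold of 0.01, which 43 of 14607 genes (0.294%) passed in the lower direction and 169 (1.16%) in the higher one, together 1.45% of the genes, and 4 of 4 were under 0.05, where 2.51% of genes were called lower. Unadjusted p was under 0.05 for 4 of 4, against 11% of genes in the lower direction and 24.7% in either, and DESeq2 called 4 of 4 lower at 0.01, against 2.97% of genes. With replicate number as a block, edgeR called 4 of 4 lower at 0.01, against 11.4% of genes. The thapsigargin libraries lay below all vehicle libraries in 4 of 4 genes, against 13.6% of 15023 genes. The median response over all genes was -0.01, and 873 genes (5.98%) were at least as low as the highest of the 4. An exact permutation of 3 libraries against 3 cannot go below p = 0.10.

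Set beside the cells without doxycycline, the response at 10 ng/mL was nearer 0 by 0.38 (SE 0.141) on the log2 scale for SUMO2, 0.41 (SE 0.169) for MLLT11, 0.36 (SE 0.142) for PIN4 and 0.40 (SE 0.142) for DAZAP2. The median of this difference over all genes was -0.01. The uninduced libraries are those that chose the genes, so these values are given as a description. Without Low ERN2 stress replicate 3, the library of highest ERN2 in its group, the response at 10 ng/mL was -0.67 for SUMO2, -0.57 for MLLT11, -0.61 for PIN4 and -0.56 for DAZAP2, and SUMO2 then passed the threshold (adjusted p = 0.00482, edgeR).

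The genes that passed the threshold at 10 ng/mL were followed in the other libraries. Their values in Low ERN2 cells come from the libraries that called them and are given only for comparison. The 43 genes called lower there had median responses of -1.08, -1.09 and -1.01 in No, Low and High ERN2 cells, and 25 of them (58.1%) were nearer 0 at 100 ng/mL than without doxycycline. The 169 genes called higher had medians of 1.32, 1.22 and 0.71, and 146 of them (86.4%) were nearer 0 at 100 ng/mL. Among all 15023 genes the share nearer 0 was 45.5%. The full set was not chosen for a large response, so its share is no like reference for the called genes. The medians of SUMO2, MLLT11, PIN4 and DAZAP2 were -0.95, -0.55 and 0.05, a pattern fixed in its first and last value by how they were chosen. HSPA8, the constitutive HSP70 chaperone of the cytosol, responded to thapsigargin by -1.996, -1.74 and -0.91 at 0, 10 and 100 ng/mL in the fit of 18 libraries, and it passed the threshold at 10 ng/mL (adjusted p = 3.33e-05, edgeR). With vehicle the log2 fold changes of the 4 genes at 100 ng/mL against no doxycycline ran from -0.26 for MLLT11 to 0.05 for SUMO2, and that of HSPA8 was -0.04 (SE 0.124).

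**Figure D3:**
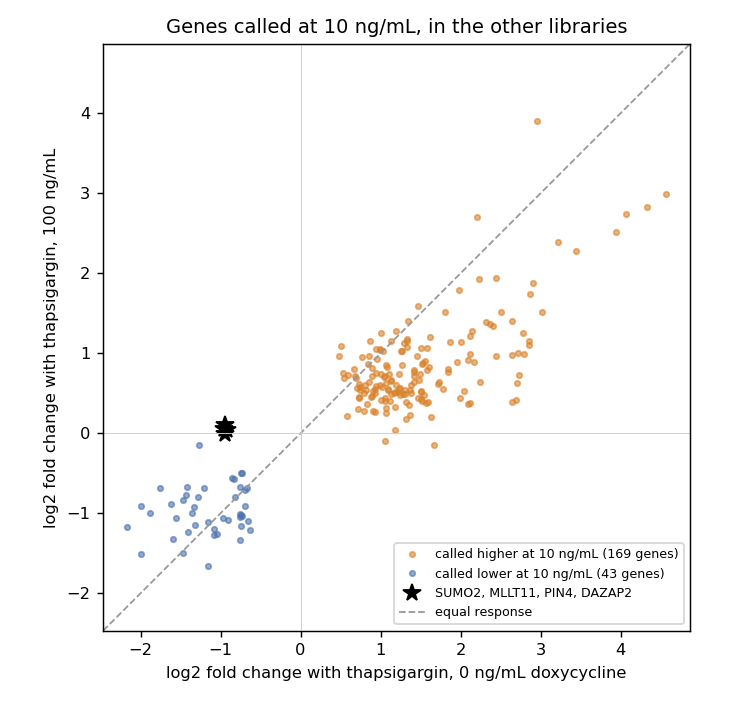
Thapsigargin response (log2 fold change, fit of 18 libraries) without doxycycline (x axis) and at 100 ng/mL (y axis) for the 169 genes called higher and the 43 called lower at 10 ng/mL, with the 4 genes as stars and a dashed line of equal response. The stars lie at about -0.95 on the x axis and near 0 on the y axis, above the blue points of the genes called lower.

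The replicate number, taken from the sample labels, was tested as a term beside the 6 group means over the 18 libraries. By edgeR's quasi-likelihood F test it was called in 0 of the 4 genes at 0.01, and DESeq2 also called 0. SUMO2 in replicate 3 was higher than in replicate 1 by 0.16 on the log2 scale (adjusted p = 0.407, edgeR). It was above its own group mean in replicate 3 in 6 of 6 groups and in replicate 1 in 1 of 6. For MLLT11 replicate 3 was lower than replicate 1 by a log2 difference of -0.14 (adjusted p = 0.677). PIN4 in replicate 3 was above replicate 1 by 0.12 (adjusted p = 0.699). DAZAP2 differed least, by 0.04 between replicates 1 and 2 (adjusted p = 0.951). Of 15023 genes, 4 (0.0266%) passed the threshold, namely IRS4, ELANE, ALPK3 and TRIM22, and 11.4% had an unadjusted p under 0.05. Among the 4 genes that was 1, SUMO2. The median range between replicate numbers over all genes was 0.17, which exceeds the range of SUMO2, MLLT11, PIN4 and DAZAP2.

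Taken between same-numbered libraries, the difference between the responses at 100 and 0 ng/mL was positive in every replicate of each gene. For SUMO2 it was 0.90, 0.95 and 0.94 in replicates 1, 2 and 3 on the log2 CPM scale. For MLLT11 it was 0.76, 1.32 and 0.95, for PIN4 0.83, 1.11 and 0.89, and for DAZAP2 0.72, 1.39 and 1.02. Replicate 1 gave the smallest value and replicate 2 the largest in each gene, and SUMO2 varied least. These values describe the contrast that chose the genes.

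At 10 ng/mL the response between same-numbered libraries was -0.71, -0.63 and -0.38 in replicates 1, 2 and 3 of SUMO2 and -0.83, -0.51 and -0.26 in those of MLLT11. For PIN4 it was -0.61, -0.62 and -0.43, and for DAZAP2 -0.66, -0.52 and -0.46. All 12 values are below 0, and replicate 3 was nearest 0 in each gene. ERN2 was at 56.8 CPM with vehicle and 111 CPM with thapsigargin in those replicate 3 libraries, the highest of their groups. At 100 ng/mL the same-numbered differences ran from -0.17 to 0.42, both in DAZAP2, and replicate 1 was below 0 in 4 of 4 genes. The part of ERN2 in these differences was not tested, and the highest ERN2 with thapsigargin at 100 ng/mL, 268 CPM, was in replicate 1.

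**Figure D4:**
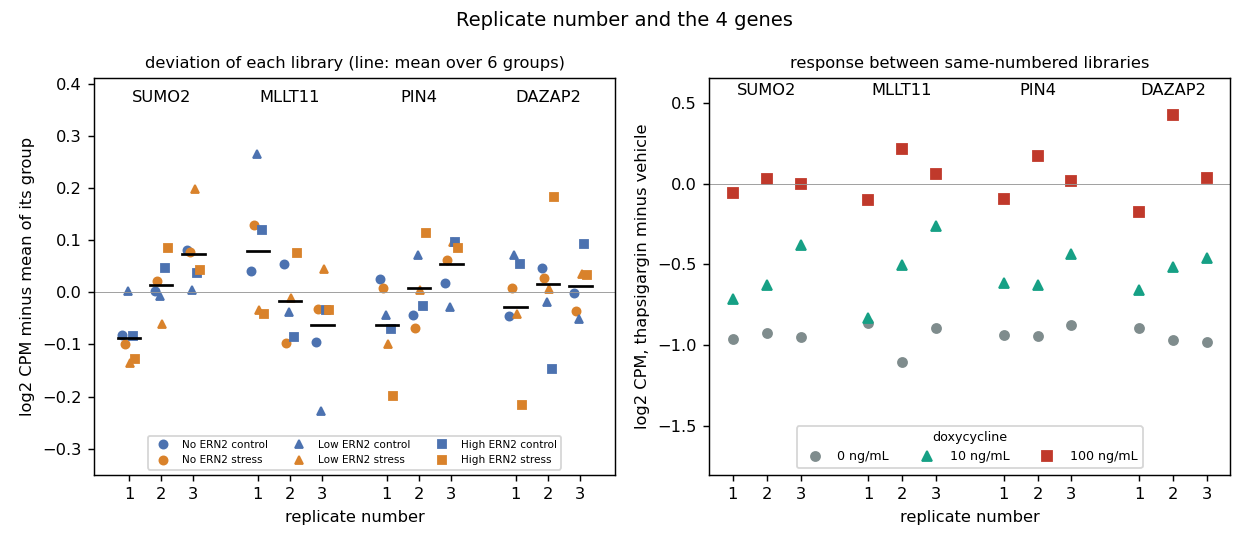
Left, log2 CPM of each library minus the mean of its group (y axis) by replicate number (x axis) for the 4 genes, with black lines for the mean over 6 groups. Right, log2 CPM with thapsigargin minus vehicle between same-numbered libraries (y axis) at 0, 10 and 100 ng/mL. On the left SUMO2 in replicate 3 is above 0 in 6 of 6 groups, and on the right the 3 doses keep their order in each replicate of each gene.

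Nearness of profiles was measured over all 18 libraries. Because 12 of them chose the 4 genes for the same contrast, their nearness to one another is a description of that choice. With each gene centred on its mean over the 18 libraries, the root mean square difference in log2 CPM between SUMO2 and PIN4 was 0.07, the smallest that either had with any of the other genes among 15023. PIN4 and DAZAP2 differed by 0.09, and SUMO2 and DAZAP2 by 0.10. MLLT11 was farther away, at 0.18 from SUMO2, 0.17 from PIN4 and 0.15 from DAZAP2, and 58 genes were closer to SUMO2 than MLLT11 was. The median difference of all genes from SUMO2 was 0.51. Next to SUMO2 after PIN4 came EIF4E2, an mRNA cap-binding protein, at 0.10 and PGAM1, a glycolytic enzyme, at 0.10. Next to MLLT11 were FAM217B at 0.10, SDHC, a subunit of succinate dehydrogenase, at 0.12 and PTTG1, also called securin, at 0.12. After SUMO2 and DAZAP2, the gene nearest PIN4 was EIF4E2 at 0.10. After PIN4 and SUMO2, the gene nearest DAZAP2 was VAMP3, a vesicle membrane protein, at 0.11. With thapsigargin at 10 ng/mL the log2 fold changes of these genes ran from -0.60 for PGAM1 to -0.44 for VAMP3. These libraries were among those that picked the neighbours, so no test is given.

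Relatives of SUMO2 and DAZAP2 were measured in the same libraries. SUMO3, a near copy of SUMO2 in its mature protein, responded to thapsigargin by -0.67 (SE 0.157), -0.36 (SE 0.156) and -0.08 (SE 0.156) at 0, 10 and 100 ng/mL in the fit of 18 libraries. SUMO4 had at most 8 reads in a library. DAZAP1, an RNA-binding protein also named for its association with DAZ, was at -0.12, -0.08 and 0.06. In the test of the 6 libraries at 10 ng/mL neither SUMO3 nor DAZAP1 passed (adjusted p = 0.246 and 0.8004, edgeR). Their unadjusted p was under 0.05 in 0 of 2, and DESeq2 called 0 of 2. The sign of DAZAP1 there turned when 1 of 2 libraries was left out, Low ERN2 control replicate 3 or Low ERN2 stress replicate 1.

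Other genes of the pathways of SUMO2, MLLT11 and DAZAP2 showed no response to thapsigargin at 10 ng/mL that edgeR called without a replicate block. In the SUMO pathway, a list of SUMO proteins and of genes that attach, remove or read them, 0 of 25 tested genes were called higher and 0 lower at 0.01, with a median response of 0.16. The E1 subunits SAE1 and UBA2 were at 0.0024 (SE 0.126) and 0.11 (SE 0.114). Among KMT2A and other fusion partners 0 of 11 were called in either direction (median 0.14), and among genes linked to DAZAP2 0 of 8 (median -0.07). The median over all tested genes was -0.01. At 0.01 edgeR called 1.45% of all tested genes in either direction, so a count of 0 in lists this short is near that share. It is not read as a lack of response in these pathways. By edgeR the number with an unadjusted p under 0.05 was 5 in the SUMO pathway list, 2 among KMT2A and its partners and 1 among genes linked to DAZAP2, that is, of 25, 11 and 8 genes, against 24.7% of all genes. DESeq2, which called 7.54% of all genes, called 1 gene of the SUMO pathway list, 1 gene linked to DAZAP2 (SIAH1, a ubiquitin ligase, named here after its values were seen) and 0 among KMT2A and its partners.

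Genes of the unfolded protein response were measured in the same libraries. Of 12 on the list, 12 were called higher with thapsigargin at 10 ng/mL, against 1.16% of all tested genes. The median log2 response of the list was 2.71, 1.98 and 1.08 in No, Low and High ERN2 cells. HSPA5, the main HSP70 chaperone of the ER, was at 511 ± 34.2 and 3689 ± 990 CPM with vehicle and thapsigargin without doxycycline, at 776 ± 48.1 and 3548 ± 984 at 10 ng/mL, and at 915 ± 61.6 and 2034 ± 141 at 100 ng/mL (SD, n = 3). DDIT3, the transcription factor CHOP, was at 10.1 ± 1.31 and 157 ± 1.42 CPM without doxycycline, at 13.4 ± 0.505 and 158 ± 1.40 at 10 ng/mL, and at 16.1 ± 1.37 and 92.1 ± 17.0 at 100 ng/mL. With thapsigargin DDIT3 ranged from 155 to 158 CPM without doxycycline and from 157 to 159 CPM at 10 ng/mL, a pair of groups that overlapped. The part of these genes in the levels of the 4 genes was not tested.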

How the data were processed

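RNA-Seq of 18 libraries of HEK293doxERN2 cells was used. The authors ran VIPER with STAR as aligner, and the deposited values are raw counts for each gene symbol, neither normalized nor filtered. The submitters' processing notes name hg38, STAR and DESeq2. Versions, annotation and strand handling are not given in the sources used here. Groups and replicate numbers come from the sample labels, and table columns were matched to samples through the column numbers in the labels. In 28 rows the symbol had been turned into a date, and 2 symbols occur in duplicate.

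After filterByExpr (minimum count 10) and TMM scaling, edgeR 4.0.16 (quasi-likelihood test, R 4.3.3) was run on the whole table, with Benjamini-Hochberg adjustment and the study's threshold of 0.01. Standard errors are the absolute log2 fold change over the root of the F statistic. The fit of the contrast that chose the genes used 12 libraries, the thapsigargin response at 10 ng/mL its 6 libraries, and replicate number all 18, from which CPM were also scaled. Log2 CPM used a prior count of 2. The genes and lists were chosen with earlier results of these data known. Named genes are the 4 genes, genes next outside by p, the 3 nearest each gene by root mean square difference, paralogs, ERN2, HSPA5 and DDIT3, and up to 4 called genes per list. None of the list genes named for the pathways passed, so the E1 subunits stand as examples chosen by role. Some genes under this rule, and a list of ribosome biogenesis genes, are not reported here. Of 25435 symbols, 22650 matched GENCODE release 29 on GRCh38, whose coordinates are quoted. The steps were tested on simulated data with effects larger than those of the 4 genes. That test does not show how often effects of the size found here would be called. The alternatives were RLE size factors, library totals alone (added after the data were seen), no filter, a threshold of 0.05, DESeq2 1.42.0, all 6 groups in 1 fit, replicate blocks, a GC and length trend, vehicle or thapsigargin libraries alone, and each library left out. Plots were made in matplotlib 3.10.9 (Python 3.11.15).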

Additional observations from a re-analysis of the deposited data

Results flagged for a closer look

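SUMO2 was set apart by a test of the difference between its thapsigargin responses at 100 and 0 ng/mL doxycycline, with a log2 difference of 1.05 (SE 0.143, adjusted p = 0.00897, edgeR) and a positive value in 3 of 3 replicate numbers. This is also the value that chose the 4 genes, so it is a description. Over the alternatives its adjusted p ran from 3.99e-08 to 0.122 and its value from 0.79 to 1.08, and with 1 library left out it stayed under 0.01 in 1 of 12 fits, the one without High ERN2 stress replicate 1. The values of MLLT11, PIN4 and DAZAP2 were of like size (1.12, 1.07 and 1.17) with an adjusted p of 0.0101 each.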

How the results depend on the processing

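Among 240 comparisons of a difference of a single gene with an alternative, 238 kept their direction, 50 gained and 13 lost a call. The genes nearest the 4 were left out. The 240 include the contrast that chose the 4 genes, with 22 alternatives for each of them and for HSPA8. These genes were picked there for a positive difference, so a kept direction in that contrast is no evidence. Of the 240, the 2 that reversed were DAZAP1 at 10 ng/mL. It went from -0.08 to 0.0414 without Low ERN2 control replicate 3 and to 0.0443 without Low ERN2 stress replicate 1. Its range was -0.23 to 0.0443 over the libraries left out. Of 28 comparisons of the untested responses of the 4 genes at 0 or 100 ng/mL, 2 changed sign, both of SUMO2 at 100 ng/mL, from -0.01 to 0.0114 with RLE size factors and to 0.0944 without High ERN2 stress replicate 1. The small number of libraries limits the precision of these tests. The cause of the differences below was not tested.

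In the contrast that chose the genes, 6 genes were called, 1 of them higher, and 1 of the 4 genes. At an adjusted p of 0.05 the numbers were 149 genes and 4 of the 4, with RLE size factors 14 and 3, without a filter 86 and 4, with library totals alone 20 and 2, with DESeq2 341 and 4, with all 6 groups in 1 fit 35 and 4, and with a GC and length trend 195 and 3. Leaving out 1 library gave 2 to 1286 genes and 0 to 4 of the 4. It gave 2 genes for each of 8 libraries (the 3 of No ERN2 control, the 3 of High ERN2 control, and replicates 2 and 3 of High ERN2 stress), 10 for No ERN2 stress replicate 3, and 1286 with 4 of the 4 for High ERN2 stress replicate 1. The omission of any of the other 11 libraries left 0 of the 4. With the replicate block 3 genes and 0 of the 4 were called, with separate replicate blocks for vehicle and thapsigargin 1 and 0, and with the GC and length trend and the replicate block 245 and 3.

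For the thapsigargin response at 10 ng/mL, 212 genes and 0 of the 4 were called. At 0.05 the numbers were 1009 and 4, without a filter 529 and 1, with DESeq2 1101 and 4, and with all 6 groups in 1 fit 676 and 4. Leaving out 1 library gave 28 genes (without Low ERN2 control replicate 2) to 494 (without Low ERN2 stress replicate 3), with 57 without Low ERN2 stress replicate 2 and 117 without Low ERN2 control replicate 3, and 0 to 1 of the 4. The list of the unfolded protein response had 7 of 12 genes called without Low ERN2 control replicate 2. With the replicate block 3620 genes (24.8%) were called, 1666 of them lower (11.4%), with 4 of the 4, 8 of 25 genes of the SUMO pathway list, 4 of 11 of the KMT2A list and 1 of 8 linked to DAZAP2. The block also changed the call of SUMO3, to an adjusted p of 0.00189 (edgeR), but not those of DAZAP1 and the 3 overlapping genes.

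For replicate number, 4 genes and 0 of the 4 were called. At 0.05 there were 67 genes, with DESeq2 222, with vehicle libraries alone 1 and with thapsigargin libraries alone 2, and leaving out 1 library gave 1 to 8, the highest without High ERN2 stress replicate 1. None of the 4 genes was called in any of these fits.

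The replicate numbers come from the labels, which do not say what they share. Deviations from the group means correlated between same-numbered libraries with a mean r of 0.07 over 45 pairs across genes, against -0.04 for 90 pairs of other numbers. In the 2 groups at 10 ng/mL the mean was 0.30 over 3 pairs, from -0.03 to 0.50, with 2 over 0.1. The main tests did not treat same-numbered libraries as paired. Whether they are paired is not given, and the calls at 10 ng/mL depend on it. With the replicate block the adjusted p at 10 ng/mL (edgeR) was 8.95e-07 for SUMO2, 7.17e-05 for MLLT11, 3.02e-06 for PIN4 and 1.25e-06 for DAZAP2. The block left the contrast that chose the genes at 1.05 (SE 0.124), 1.13 (SE 0.168), 1.07 (SE 0.160) and 1.16 (SE 0.182) in the same order.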
